A study of Mus musculus with 4 samples.

Results

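Heat shock proteins and their DnaJ and Bag cochaperones were compared between mature adipocytes of 2 mouse fat depots. The members were the rows of the deposited gene table whose symbol names an HSP70, HSP110, HSP60, HSP10 or small heat shock protein (Hspa, Hsph, Hspd, Hspe, Hspb), an HSP90, a J protein (Dnaja, Dnajb, Dnajc) or Bag1 to Bag6. This rule found 73 of the 18781 genes in the table, and used no measured value. Of the 73, 66 reached at least 1 normalized CPM (reads per gene scaled to library depth, with a further scaling between libraries by the authors) in at least 2 of the 4 libraries and were tested. The other 7, Hspa1l, Hspb7, Hspb9, Dnajb3, Dnajb7, Dnajb13 and Dnajc6, had at most 12 reads in any library.

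Chaperones bind unfolded or partly folded proteins and help them reach, or return to, a working shape. HSP70 proteins do this in cycles of ATP hydrolysis: a J protein delivers the client and triggers hydrolysis, and a nucleotide exchange factor, such as an HSP110 or a Bag protein, resets the cycle. HSP90 acts later, on clients such as kinases and steroid receptors, while small heat shock proteins hold unfolded proteins without using ATP. Each compartment has its own set: Hspa5 (BiP) and Hsp90b1 (GRP94) work in the endoplasmic reticulum, and Hspa9 (mortalin), Hspd1 (HSP60) and Hspe1 (HSP10) in mitochondria. Many cytosolic members are induced by heat shock factor Hsf1, and the reticulum members by the unfolded protein response.

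RNA was sequenced from purified mature adipocytes of inbred C57BL/6 mice aged 30 days after birth. The dermal group held 2 libraries from the fat of dorsal skin (dWAT), and the inguinal group 2 libraries from the fat pad of the groin (sWAT). All 4 preparations were digested with collagenase IV and dispase II and collected by flotation, and the labels name no genotype or treatment. Reads assigned to genes numbered 10127125 to 12730013 per library, so 3 reads, the floor used here, equalled 0.253 to 0.291 CPM. Whether the libraries of a depot stem from different animals is not stated, and p-values then measure no more than how far these libraries differ, possibly for technical reasons. Adipoq, which encodes adiponectin, lay between 2965 and 3964 CPM and Pparg, the adipocyte regulator, between 426 and 585 CPM. All 14 listed adipocyte markers were measured. Lep and Plin1 were higher in dermal libraries by the test given below, and 0 of the 14 were higher in inguinal libraries. That is 14.3%, where 16.4% of all tested genes passed in either direction. Markers of other cells were present too: all 15 endothelial genes were higher in inguinal libraries, and 11 of 14 tested macrophage genes higher in dermal libraries. In such bulk samples, fewer cells of a type and less RNA per cell cannot be told apart.

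Promoter letters of a few members are shown first, because heat shock factors bind repeats of GAA and its complement TTC. RefSeq promoter windows on GRCm38.p6, from 250 bases before to 50 bases after a start site, matched 60 of the 73 members by symbol. These members differed in whether they held such repeats. The rest, among them Hspa8, Hsp90aa1 and Hspa9, had no window and were not searched. An element of 3 alternating units (GAA, TTC and GAA, or TTC, GAA and TTC, with any 2 bases between units, so that both strands were covered) lay in the windows of 4 of these 60 members, Hspd1, Hspe1, Hsph1 and Dnajb6. Among all 13399 genes of the table with a window, 78 (0.582%) held it. The shorter 2-unit core contained in it, GAANNTTC or TTCNNGAA, lay in 15 of the 60 members (25%) and in 14.8% of those genes. In the stretches below, each upstream of its start site and read 5′ to 3′ on the gene's strand, capitals mark this core for Hspa1a, Hspa1b, Dnaja1 and Dnajb4, and the overlapping 3-unit elements for Hspe1. For Hspa5 they mark the stress element of endoplasmic reticulum chaperones (CCAAT, any 9 bases, CCACG), also found in the windows of Hsp90b1 and Dnajc3 and in 0.172% of genes. It was searched on both strands. The Dnajb4, Dnaja1 and Hspa5 stretches lie inside the annotated gene, before a RefSeq start downstream of the gene's 5′ end. Where a gene had several windows, 1 that held a site was shown.
Hspa1a (chr17:34972157-34972306, minus strand): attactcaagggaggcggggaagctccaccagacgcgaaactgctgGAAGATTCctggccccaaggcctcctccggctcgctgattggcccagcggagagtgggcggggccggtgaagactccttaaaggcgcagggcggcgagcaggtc
Hspa1b (chr17:34959239-34959388, minus strand): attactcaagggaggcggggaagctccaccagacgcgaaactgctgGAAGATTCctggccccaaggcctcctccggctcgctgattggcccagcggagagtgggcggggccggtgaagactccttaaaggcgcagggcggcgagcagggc
Dnajb4 (chr3:152193846-152193995, minus strand): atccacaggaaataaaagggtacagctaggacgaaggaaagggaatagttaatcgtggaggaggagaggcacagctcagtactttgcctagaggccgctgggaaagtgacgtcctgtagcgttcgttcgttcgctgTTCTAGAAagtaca
Dnaja1 (chr4:40722333-40722362, plus strand): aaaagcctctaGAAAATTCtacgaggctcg
Hspe1 (chr1:55088053-55088082, plus strand, shared with Hspd1 on the other strand): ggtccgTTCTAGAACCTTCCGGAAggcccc
Hspa5 (chr2:34772019-34772048, plus strand): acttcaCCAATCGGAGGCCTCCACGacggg
The Hspa1a and Hspa1b stretches were identical at 149 of 150 positions. A match to these letters is a description and does not show that a factor binds there.

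Across the family, 3 members were higher in dermal libraries (Hspa1a, Hspa1b and Bag6) and 8 were higher in inguinal libraries (Hspa8, Hspa12b, Dnaja1, Dnajb4, Dnajb9, Dnajc8, Dnajc15 and Bag3). The test was limma on log2(CPM + 0.5) across all genes with Benjamini-Hochberg adjustment and a threshold of 0.05, and log2 fold changes below are the dermal minus the inguinal mean on that scale. The 3 members are 4.55% of those tested, where 7.56% of all tested genes were higher in dermal libraries. The 8 members are 12.1%, where 8.80% of all tested genes were higher in inguinal libraries. The share that passed in either direction, 16.7% against a background of 16.4%, did not set the family apart. Its median log2 fold change was -0.19, against 0.016 for all tested genes. Of its 66 estimates 47 were negative, as were 6218 of those of all 12797 tested genes. In 29 members both inguinal libraries lay above both dermal ones (43.9%, background 30.1%), and in 11 the reverse held (16.7%, background 31.6%). In either direction 40 members (60.6%) had libraries that did not overlap, with a background of 61.8%. Where a fit left out 1 library, the lone library of that depot was assumed to vary like the other depot. Counts of members varied with single libraries, from 3 higher in inguinal libraries without dermal replicate 1 to 14 without inguinal replicate 2. Those higher in dermal libraries rose to 6 without inguinal replicate 1. Over all genes, 2094 calls became 1023 without dermal replicate 1 and 1037 without dermal replicate 2, so a call lost in those fits does not by itself show a smaller difference.

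**Figure D1:**
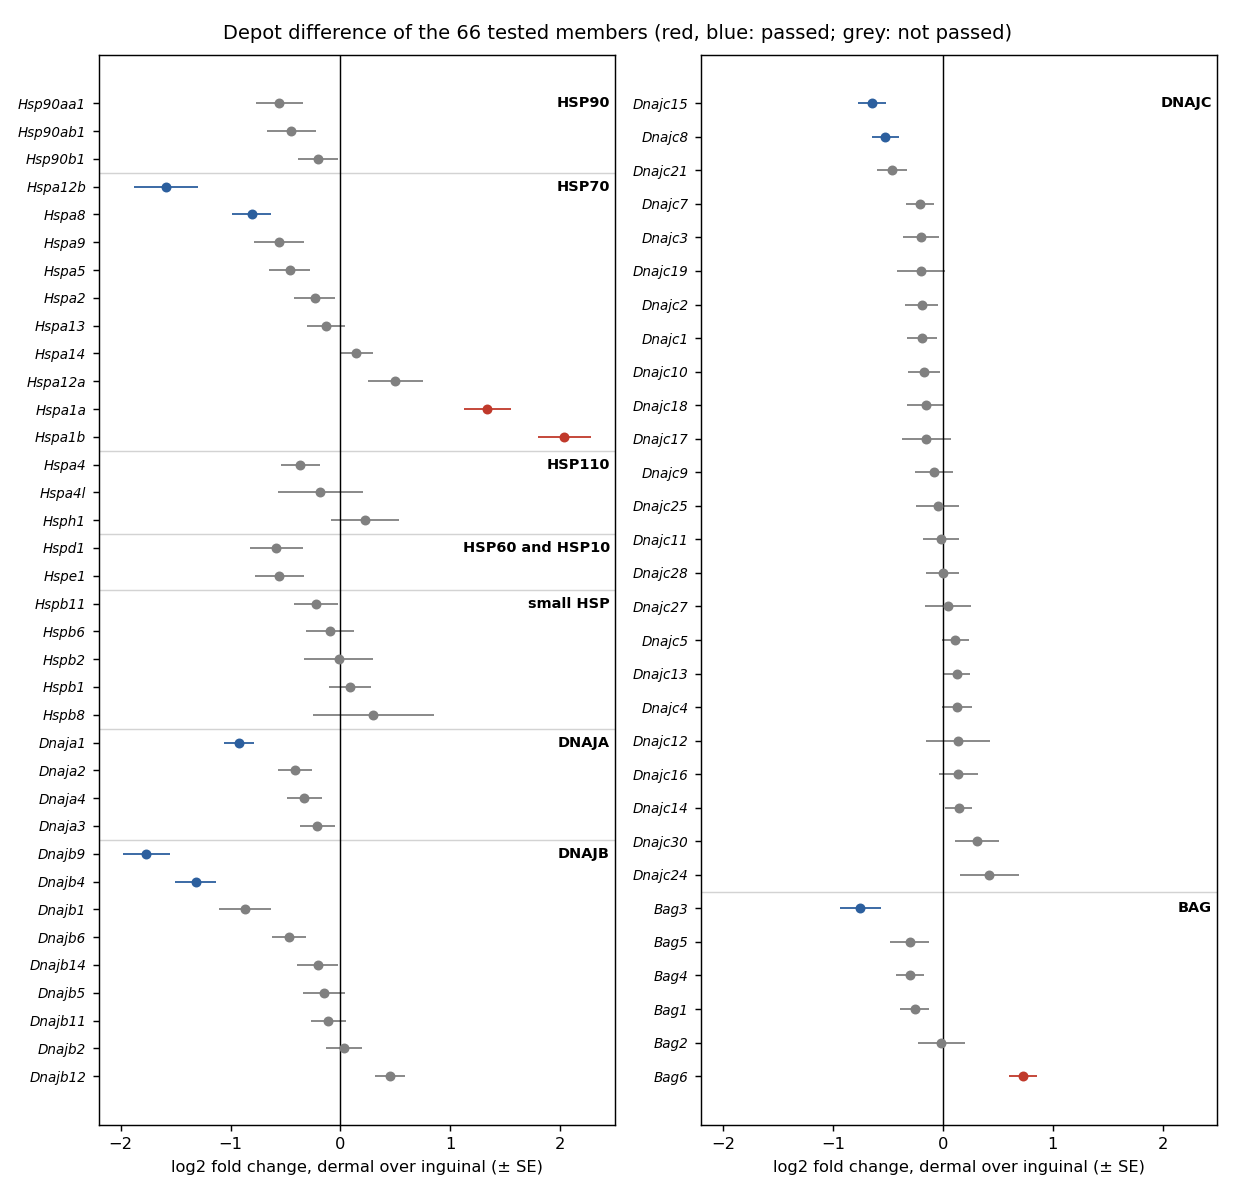
Log2 fold change of each of the 66 tested members (dermal minus inguinal mean of log2(CPM + 0.5)) with its standard error, grouped by chaperone class. Red points (3) passed as higher in dermal and blue points (8) as higher in inguinal libraries, and the HSP70 class holds points far to both sides, from -1.59 for Hspa12b to 2.04 for Hspa1b.

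The HSP70 class, the ATP-driven core of the system, moved in both directions. Of its 10 tested genes 2 were higher in dermal, 2 were higher in inguinal libraries and 6 did not pass. The share that passed was 40%, where 16.4% of all tested genes passed. Hspa1b (chromosome 17, 34956436 to 34959238), one of 2 nearly identical stress-inducible HSP70 genes, measured 129 and 200 CPM in the dermal pair against 44.5 and 33.8 CPM in the inguinal pair. Its dermal mean was 4.21 times the inguinal mean (log2 fold change 2.04, SE 0.24, limma adjusted p = 0.00422). Its neighbour Hspa1a (chromosome 17, 34969190 to 34972156) measured 188 and 255 CPM against 102 and 73.2 CPM, a dermal mean 2.53 times the inguinal one (log2 fold change 1.34, SE 0.21, adjusted p = 0.0113). For neither gene did the depots overlap, and both passed under all 14 alternatives run. Of the 50-base stretches in their annotated transcripts, 62.3% (Hspa1b) and 66.3% (Hspa1a) also occur in transcripts of other genes, chiefly each other. How reads were divided between them is therefore uncertain. Their sum was 318 and 456 CPM in the dermal pair against 147 and 107 CPM in the inguinal pair. It is free of that division only if each shared read was counted for 1 gene. Hba-a1 and Hba-a2, of the red blood cell list described below, had equal values in each library. A read may thus have been counted for both genes of a pair. The same limit holds for the ratios built on this sum below. Macrophage markers summed to 1795 and 1691 CPM against 649 and 610.5 CPM. They moved in the same direction as Hspa1a and Hspa1b, with 11 of 14 tested higher in dermal libraries. So did 8 of 10 tested keratinocyte and hair follicle markers, which summed to 144 and 65.5 CPM against 27.5 and 20.2 CPM, with Krt17 at 0 in both inguinal libraries. Of 5 tested mast cell markers 3 were higher in dermal and 1 was higher in inguinal libraries, and the list summed to 67.5 and 199.98 CPM against 40.4 and 45.7 CPM, with dermal replicate 2 highest as for Hspa1a and Hspa1b and Fcer1a at 0 in both inguinal libraries. Fibroblast and progenitor markers, of which 1 of 10 was higher in dermal libraries, summed to 4847 and 10541 CPM against 3358 and 5611 CPM. Of 11 tested skeletal muscle genes 2 passed as higher in dermal libraries, and all 11 had positive estimates. That list summed to 72.1 and 67.8 CPM against 45.4 and 38.7 CPM. Their part in the Hspa1a, Hspa1b and Bag6 differences was not tested. The third gene of the cluster, Hspa1l, a testis-enriched member, had 2 to 9 reads per library.

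Hspa8, which encodes the constitutive HSC70 and also drives the removal of clathrin coats, went the other way. It measured 2099 and 2065 CPM in the dermal pair against 3775 and 3529 CPM in the inguinal pair, an inguinal mean 1.75 times the dermal one (log2 fold change -0.81, SE 0.18, adjusted p = 0.0285). The libraries of each depot lay close together and the depots did not overlap. The Hspa8 call did not hold without dermal replicate 1 (adjusted p = 0.182), without dermal replicate 2 (0.209) and without a filter (0.0901), although its fold change stayed between -0.86 and -0.76 with libraries left out. Hspa8 also hosts 3 snoRNA genes, and 39.4% of its 50-base stretches occur in other transcripts, chiefly pseudogenes. Per 100 CPM of Hspa8, the summed Hspa1a and Hspa1b level was 15.1 and 22.1 CPM in the dermal pair against 3.88 and 3.03 CPM in the inguinal pair.

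Hspa12b, a distant HSP70 relative known from endothelial cells, measured 7.19 and 9.01 CPM in the dermal pair against 19.0 and 33.4 CPM in the inguinal pair (log2 fold change -1.59, SE 0.29, adjusted p = 0.0166). Both inguinal libraries lay above the dermal ones, and replicate 2 was the highest. The 15 endothelial markers summed to 597 and 627 CPM in the dermal pair against 2088 and 3127 CPM in the inguinal pair, with the same library highest and none of the 15 at 0. Red blood cell genes, 5 of 6 higher in inguinal libraries, summed to 82.2 and 49.8 CPM against 199 and 380.4 CPM, again highest in that library. Hba-a1 and Hba-a2 had equal values in each library (18.7 and 13.1 against 46.6 and 92.5 CPM). Their reads may be counted more than once in that sum and that count. Of 10 tested pericyte and smooth muscle markers 8 were higher in inguinal and 2 were higher in dermal libraries, and that list summed to 741 and 719 CPM against 734 and 769 CPM. The part of these lists in the Hspa12b difference was not tested. Without inguinal replicate 1 the Hspa12b fold change was -1.99, and -1.19 without inguinal replicate 2, and it passed in both cases. Hspa12a, its relative, measured 138 and 104 CPM against 107 and 66.8 CPM and did not pass (log2 fold change 0.50, adjusted p = 0.219), with overlapping depots. It passed without inguinal replicate 1 (adjusted p = 0.0109).

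The remaining HSP70 genes did not pass. Hspa5, which encodes BiP of the endoplasmic reticulum, measured 611 and 507 CPM in the dermal pair against 872 and 676 CPM in the inguinal pair (adjusted p = 0.137). Hspa9, which encodes mitochondrial mortalin, measured 676 and 523 CPM against 1062 and 724 CPM (adjusted p = 0.147). For both, the inguinal libraries lay above the dermal ones by less than the test required, and both passed without inguinal replicate 2 (0.0363 and 0.0174). Hspa2, Hspa13 and Hspa14 lay between 14.8 and 57.6 CPM with overlapping depots.

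J proteins of the A and B groups, which bring clients to HSP70, held the member with the largest inguinal difference, Dnajb9. Dnajb9 (ERdj4), a J protein of the endoplasmic reticulum that binds BiP, measured 73.7 and 74.9 CPM in the dermal pair against 318 and 204 CPM in the inguinal pair, an inguinal mean 3.51 times the dermal one (log2 fold change -1.77, SE 0.21, adjusted p = 0.00460). Dnajb4 (HLJ1), a cytosolic J protein, measured 97.6 and 130 CPM against 313 and 255 CPM (log2 fold change -1.32, SE 0.18, adjusted p = 0.00717). Neither gene overlapped between depots, and both passed under all 14 alternatives. Dnaja1, the main cytosolic A-group partner of Hspa8, measured 216 and 233 CPM against 456 and 395 CPM (log2 fold change -0.92, SE 0.14, adjusted p = 0.00865). The endothelial, red blood cell and pericyte markers described beside Hspa12b were measured in the same libraries, and their part here was not tested. The Dnaja1 call did not hold without dermal replicate 1 (adjusted p = 0.0587).

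Dnajb1 (HSP40), the classic heat-inducible partner of inducible HSP70, measured 94.6 and 154 CPM in the dermal pair against 238 and 206 CPM in the inguinal pair. All inguinal values lay above the dermal ones, but the spread between the dermal libraries was wide and the gene missed the threshold (log2 fold change -0.87, SE 0.24, adjusted p = 0.0533). It passed with DESeq2 (adjusted p = 0.00768), without dermal replicate 2 (0.0122) and without inguinal replicate 2 (0.0184). In the same libraries the summed Hspa1a and Hspa1b level was 3.36 and 2.95 times that of Dnajb1 in dermal and 0.615 and 0.521 times in inguinal libraries. These are ratios of CPM without correction for gene length, so they compare depots and not the levels of the genes.

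Other members of these groups did not pass. Dnaja2, a further cytosolic partner of HSP70, measured 105 and 133 CPM against 152 and 165 CPM (adjusted p = 0.116). Dnajb6, a J protein that suppresses protein aggregation, measured 92.1 and 119 CPM against 142 and 148 CPM (adjusted p = 0.0942). Dnaja3, the mitochondrial member, measured 81.4 and 67.2 CPM against 94.5 and 77.6 CPM, with overlap. Dnajb12, a membrane protein of the endoplasmic reticulum, had the highest fold change of the B group, at 46.0 and 51.7 CPM in the dermal pair against 36.0 and 35 CPM in the inguinal pair (log2 fold change 0.45, adjusted p = 0.0730). Counted together, 1 of 4 tested A-group (25%) and 2 of 9 tested B-group genes (22.2%) were higher in inguinal libraries. Among all tested genes 8.80% were.

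**Figure D2:**
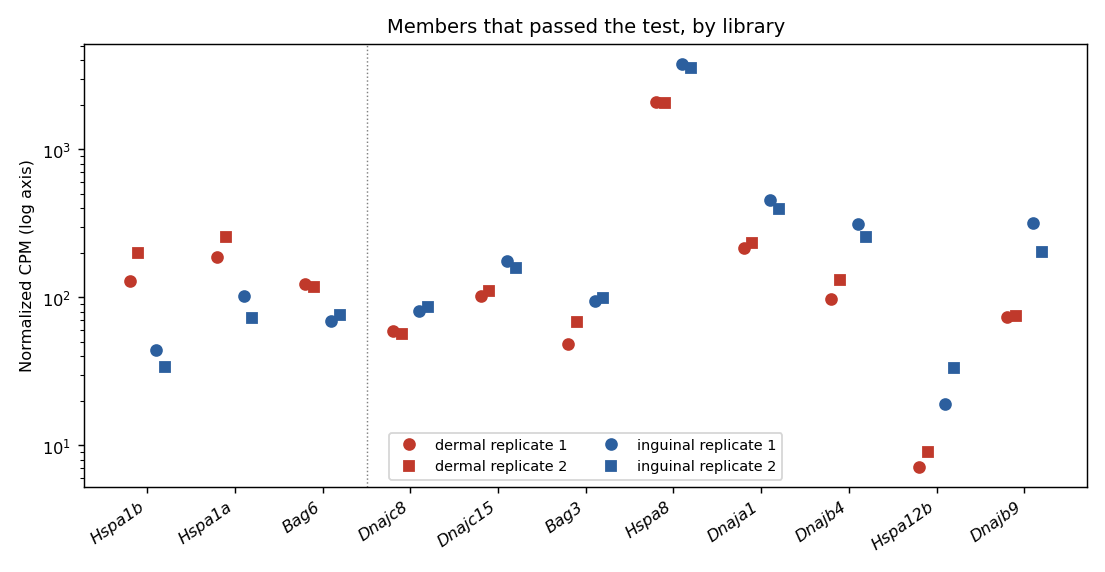
Normalized CPM (log axis) of the 11 members that passed, with 1 point per library. Left of the dotted line both dermal libraries (red) lie above both inguinal libraries (blue), and right of it the order is reversed, with Hspa12b the lowest, at 7.19 to 33.4 CPM.

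Textbook heat-inducible genes split between the depots. Among 12 such genes, chosen with their values known, Hspa1a and Hspa1b were higher in dermal libraries, and Dnaja1, Dnajb4 and Bag3 were higher in inguinal libraries. Hsp90aa1, Hspd1, Hspe1 and Dnajb1 had inguinal libraries above dermal ones without passing, and Hsph1, Hspb1 and Hspb8 overlapped. The transcription factor Hsf1 lay between 13.5 and 16.4 CPM in all 4 libraries (log2 fold change 0.093, adjusted p = 0.755), and Hsf2 between 16.5 and 22.5 CPM (adjusted p = 0.535). The immediate early list, genes that cells switch on within minutes of a stimulus, including tissue dissociation, was measured beside them. Of its 24 genes 17 passed as higher in inguinal libraries, each of the 24 had a negative estimate, the median was -1.42, and it summed to 2914 and 4222 CPM in the dermal pair against 8585 and 9339 CPM in the inguinal pair. Fos measured 280.0 and 371 CPM against 948 and 1103 CPM, Fosb 94.7 and 119 CPM against 520 and 606 CPM, and Atf3 115 and 161 CPM against 483 and 451 CPM. The part of that response in the chaperone differences was not tested. Hspa1a and Hspa1b had the opposite direction to these genes.

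**Figure D3:**
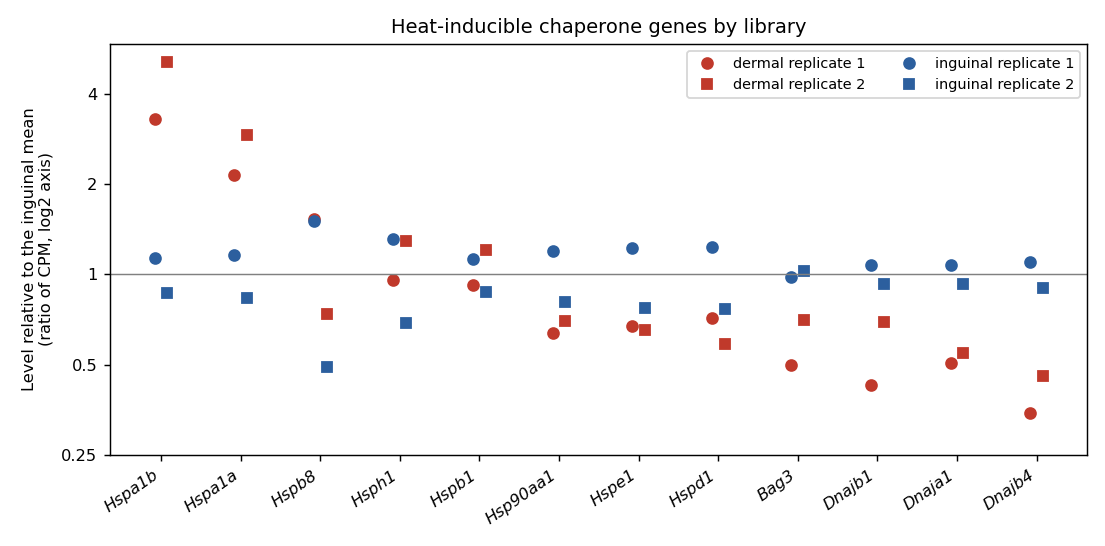
Level of 12 heat-inducible chaperone genes in each library, as the ratio of its CPM to the gene's inguinal mean (log2 axis). The 12 genes were chosen with their values known. Dermal points of Hspa1b and Hspa1a lie above all inguinal points, those of Hsph1, Hspb1 and Hspb8 mix with them, and those of the 7 genes from Hsp90aa1 rightward lie below.

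HSP90 and HSP110 genes, the later client-maturing chaperones and the exchange factors of HSP70, held 0 of 6 tested members that passed by limma, 1 with an unadjusted p under 0.05, 0 that passed by edgeR and 1 by DESeq2. Hsp90ab1, the constitutive cytosolic HSP90, measured 1202 and 927 CPM in the dermal pair against 1681 and 1230 CPM in the inguinal pair (log2 fold change -0.45, SE 0.22, adjusted p = 0.216). Hsp90aa1, the inducible form, measured 698 and 765 CPM against 1307 and 882 CPM (log2 fold change -0.56, SE 0.21, adjusted p = 0.129). Hsp90aa1 passed with DESeq2 (adjusted p = 0.0488) and without inguinal replicate 2 (0.0121). Hsp90b1 of the endoplasmic reticulum measured 664 and 546 CPM against 782 and 616 CPM, with overlap. In all 3 genes inguinal replicate 1 was the highest library. Hspa4 (APG-2) measured 216 and 164 CPM against 266 and 221 CPM (adjusted p = 0.210), Hsph1 (HSP105) 98.0 and 133 CPM against 135 and 70.5 CPM, and Hspa4l (APG-1) 27.1 and 20.5 CPM against 41.3 and 17.4 CPM. For Hsph1 and Hspa4l the inguinal libraries lay further apart than the depot means. Without inguinal replicate 1 the log2 fold changes were 0.69 for Hsph1 and 0.43 for Hspa4l. Without inguinal replicate 2 they were -0.24 and -0.80.

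Of the 8 mitochondrial members, 7 had negative estimates, and Dnajc15 alone passed (12.5%). Among all 12797 tested genes, 6218 had negative estimates and 16.4% passed in either direction. Hspd1, which forms the folding chamber of the matrix, measured 429 and 351 CPM in the dermal pair against 737 and 459 CPM in the inguinal pair (log2 fold change -0.58, SE 0.24, adjusted p = 0.153). Its lid Hspe1, transcribed from the same promoter in the opposite direction, measured 111 and 108 CPM against 203 and 128 CPM (log2 fold change -0.56, SE 0.22, adjusted p = 0.139). Per 100 CPM of Hspd1, and without correction for gene length, Hspe1 stood at 26.0 and 30.7 CPM in the dermal pair against 27.6 and 27.8 CPM in the inguinal pair. Both passed without inguinal replicate 2 (adjusted p = 0.00594 for Hspd1 and 0.00254 for Hspe1), and inguinal replicate 1 was the highest library for each. Dnajc15 (MCJ), a J protein of the inner membrane that restrains respiratory complex I, measured 102 and 111 CPM in the dermal pair against 176 and 159 CPM in the inguinal pair (log2 fold change -0.65, SE 0.13, adjusted p = 0.0211). The Dnajc15 call did not hold without dermal replicate 1 (adjusted p = 0.162), without dermal replicate 2 (0.0967) or with no intensity trend (0.0562), with log2 fold changes from -0.71 to -0.59. Dnajc19, Dnajc11 and Dnajc30, other mitochondrial J proteins, did not pass. In these libraries 8 of 9 tested brown and beige adipocyte genes were also higher in inguinal libraries. Among them Ppargc1a, a coactivator of mitochondrial genes, measured 14.6 and 10.7 CPM against 29.6 and 31.9 CPM. The list summed to 73.8 and 71.0 CPM in the dermal pair against 261 and 324 CPM in the inguinal pair, with Ucp1 at 0 in dermal replicate 2. Its part in the mitochondrial values was not tested.

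**Figure D4:**
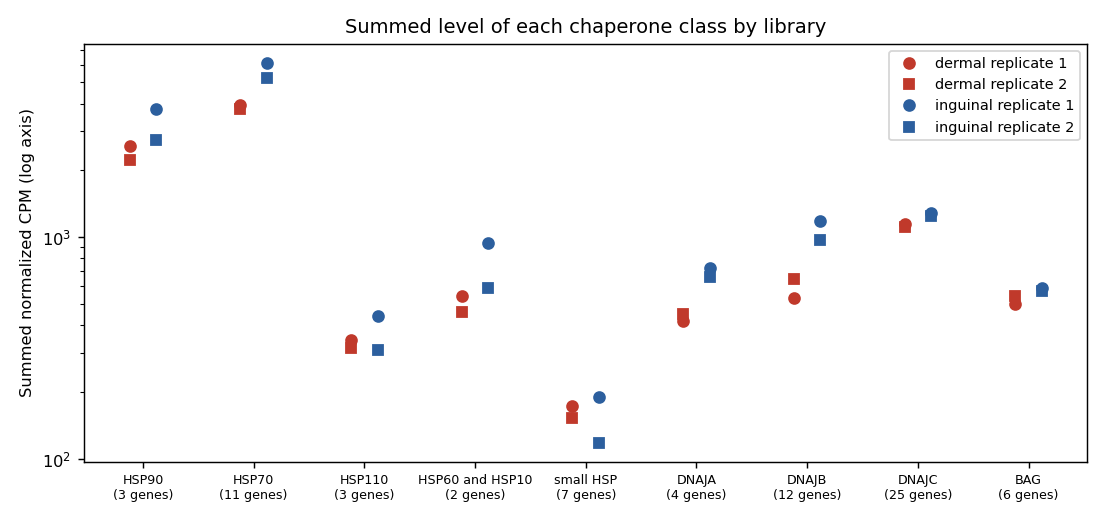
Summed normalized CPM of all rows in each chaperone class (log axis), with 1 point per library. In 7 of 9 classes both inguinal libraries lie above both dermal libraries, and in HSP110 and the small heat shock proteins they overlap. As a share of reads BAG overlaps too, which leaves 6 of 9. With Hspa8 taken out, the HSP70 sums would overlap as well.

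Summed over all 73 rows, chaperone reads made up 1.03% and 1.01% of reads in the dermal pair and 1.42% and 1.26% in the inguinal pair. The inguinal mean of the summed CPM was 1.39 times the dermal mean, and 1.31 times with library-size CPM. The HSP70 rows gave the largest sum, at 3951 and 3771 CPM in the dermal pair against 6099 and 5236 CPM in the inguinal pair. Hspa8, which gave more than any other gene, made up 2099 and 2065 CPM of it against 3775 and 3529 CPM. With Hspa8 taken out, the HSP70 sums of the depots overlapped. With 2 libraries against 2, an exact test of such a sum cannot reach the threshold, so none is given.

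In the endoplasmic reticulum, Dnajb9 was the single call among 13 tested members (7.69%, where 16.4% of all tested genes passed in either direction). The abundant luminal chaperones Hspa5 and Hsp90b1 did not pass, nor did the BiP partners Dnajb11 (67.5 and 54.5 CPM against 70.8 and 60.7 CPM) and Dnajc3 (216 and 170 CPM against 240 and 201 CPM), which overlapped. Of 24 tested genes of folding and the unfolded protein response, 1 was higher in dermal and 2 were higher in inguinal libraries, with a median of 0.12. Ddit3, which encodes the stress factor CHOP, measured 11.8 and 11.95 CPM in the dermal pair against 27.0 and 20.7 CPM in the inguinal pair (adjusted p = 0.0203). Atf4, the factor upstream of it, measured 104 and 150 CPM against 198 and 221 CPM (adjusted p = 0.0476). Syvn1, the ubiquitin ligase HRD1 of reticulum-associated degradation, measured 27.9 and 28.8 CPM against 14.5 and 16.6 CPM (adjusted p = 0.0174). Xbp1, the transcription factor of the IRE1 branch, measured 366 and 364 CPM against 324 and 347 CPM (adjusted p = 0.543), and the abundant lectin chaperones Calr (adjusted p = 0.895) and Canx (0.919) overlapped. The Ddit3 and Syvn1 calls were lost without either dermal library (adjusted p from 0.0751 to 0.106), with log2 fold changes of -0.97 to -0.96 and 0.82 to 0.87. The Atf4 call did not hold without dermal replicate 1 (adjusted p = 0.264) and under 6 other alternatives.

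Of the 5 tested genes with an Hspb symbol 0 passed by limma, edgeR or DESeq2, 0 had an unadjusted p under 0.05, and all 5 overlapped between depots. Among them Hspb11 was counted here by its symbol, with no compartment assigned, and Hspb2 had only 11 to 14 reads per library. Hspb1 (HSP25) measured 59.2 and 77.1 CPM in the dermal pair against 72.4 and 55.9 CPM in the inguinal pair (log2 fold change 0.086, adjusted p = 0.796). Hspb8, which works with Bag3 in clearing aggregates, measured 90.2 and 43.4 CPM in the dermal pair against 89.0 and 28.9 CPM in the inguinal pair (log2 fold change 0.30, SE 0.55, adjusted p = 0.749). Its libraries numbered 1 were high and those numbered 2 low in both depots. Hspb6 (HSP20), a muscle-enriched member, lay between 11.4 and 15.8 CPM. The log2 fold change of Hspb8 was 1.10 without inguinal replicate 1 and -0.50 without inguinal replicate 2. Cryab, a small heat shock protein with another name, measured 63.3 and 66.1 CPM against 53.5 and 35.9 CPM and did not pass (log2 fold change 0.56, adjusted p = 0.114). It passed without inguinal replicate 1 (adjusted p = 0.00484).

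DNAJC proteins share the J domain but often have specialised tasks outside general folding. Of 24 tested, 2 (8.33%) were higher in inguinal libraries, where 8.80% of all tested genes were. The other 22 did not pass, and the median was -0.064. Besides Dnajc15, Dnajc8, a nuclear protein linked to splicing, measured 59.3 and 56.4 CPM in the dermal pair against 80.9 and 86.0 CPM in the inguinal pair (log2 fold change -0.52, SE 0.12, adjusted p = 0.0367). This call did not hold without dermal replicate 1 (adjusted p = 0.186), dermal replicate 2 (0.257) or inguinal replicate 2 (0.0578). It was also lost with quantile normalization (0.0567), with library-size CPM (0.0851) and without the intensity trend (0.0803). Dnajc21, which acts in ribosome assembly, measured 44.1 and 49.5 CPM against 61.9 and 67.1 CPM and did not pass (adjusted p = 0.0683). Dnajc13, a J protein of endosomes, measured 133 and 137 CPM against 124 and 123 CPM (adjusted p = 0.5005).

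Some Bag proteins release nucleotide from HSP70 and link it to degradation. Among 6 tested Bag genes, 1 was higher in dermal and 1 in inguinal libraries. That is 33.3%, where 16.4% of all tested genes passed in either direction. Estimates were negative in 5 of the 6, with a median of -0.28. In 4 genes both inguinal libraries lay above both dermal ones, and in 1 the reverse held. That is 83.3% without overlap, with a background of 61.8%. Bag6 (chromosome 17, 35135178 to 35147322), which guides tail-anchored and mislocalised membrane proteins, measured 123 and 118 CPM in the dermal pair against 69.0 and 76.0 CPM in the inguinal pair. Its dermal mean was 1.66 times the inguinal mean (log2 fold change 0.73, SE 0.13, adjusted p = 0.0143). Bag3, the stress-inducible member of chaperone-assisted autophagy, measured 48.4 and 68.1 CPM against 94.7 and 99.2 CPM (log2 fold change -0.75, SE 0.18, adjusted p = 0.0391). Bag1 measured 194 and 207 CPM against 257 and 222 CPM (adjusted p = 0.241) and Bag4 106 and 119.7 CPM against 139 and 138 CPM (adjusted p = 0.159), while Bag2 lay between 6.20 and 7.43 CPM and Bag5 between 18.5 and 27.1 CPM. The Bag6 call did not hold without dermal replicate 1 (adjusted p = 0.1005) and dermal replicate 2 (0.0775), with log2 fold changes of 0.70 and 0.76. The Bag3 call did not hold without dermal replicate 1 (0.229), with quantile normalization (0.0653), with library-size CPM (0.0711), without a filter (0.0583) and without the intensity trend (0.0803).

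Partner genes are given by list, beside the 16.4% of all tested genes that passed in either direction. Of 22 HSP90 cochaperones 1 passed: Fkbp8, a membrane-anchored immunophilin, measured 109 CPM in each dermal library, against 73.0 and 61.6 CPM in the inguinal pair (log2 fold change 0.70, adjusted p = 0.0210). That call did not hold without either dermal library (adjusted p = 0.116 and 0.111, log2 fold changes 0.69 and 0.70) and without the intensity trend (0.0537). The abundant cochaperones Sgta (153 and 145 CPM against 118 and 121 CPM) and Ptges3, the p23 protein (133 and 112 CPM against 167 and 132 CPM), did not pass. Of 14 other HSP70 partners 0 passed by limma, edgeR or DESeq2, and 2 had an unadjusted p under 0.05. The most abundant, St13 (HIP), lay between 483 and 560.4 CPM. Of 13 tested subunits of the TRiC chaperonin and prefoldin, which fold actin and tubulin, 0 passed by limma, edgeR or DESeq2 and 3 had an unadjusted p under 0.05. Among them, 12 had negative estimates and the median was -0.31, with Cct2 at 176 and 156 CPM against 226 and 214 CPM and Tcp1 at 187 and 147 CPM against 234 and 193 CPM. Of 14 mitochondrial proteostasis genes 0 passed by those tools and 1 had an unadjusted p under 0.05, with Yme1l1 and Trap1 the most abundant. In the list of polyubiquitin and aggregate clearance genes, 1 of 10 passed. It was Ubqln2, a shuttle of ubiquitinated proteins, at 17.4 and 20.1 CPM against 9.80 and 10.7 CPM (adjusted p = 0.0248). It no longer passed without dermal replicate 1 (0.0886) or 2 (0.176). Sqstm1, which encodes the autophagy receptor p62, measured 355 and 361 CPM against 509.9 and 462 CPM and did not pass (adjusted p = 0.0691).

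The CPM ratios between genes given above were not corrected for gene length. Here levels of different genes were compared per kilobase of exon, taken as the union of all annotated exons, which counts exons that adipocytes may not use. On this scale, with levels in CPM per kb, Hspa8 led in every library, at 488 and 480 in dermal and 878 and 820 in inguinal libraries. Hsp90ab1 followed at 401 and 309 in dermal and 561 and 410.1 in inguinal libraries, and Hsp90aa1 at 178 and 194 against 332 and 224. Shared sequence limits these levels too. Of their 50-base stretches, 47.5% for Hsp90aa1, 42.1% for Hspd1, 50.1% for Hspb1 and 20.6% for Dnaja1 also occur in other transcripts. Hspd1, Hspa9, Bag1, Hsp90b1 and Hspa5 came next with means of 158 to 187. Their library ranges overlapped with one another and with that of Hsp90aa1. Within each library Hsp90aa1 lay above Hspd1, and Hspd1 above Hspa9. The order of Hspa9, Bag1, Hsp90b1 and Hspa5 varied between libraries and is not resolved. Hspa1a stood at 63.5 and 86.0 in dermal and 34.4 and 24.7 in inguinal libraries. Dnajb1 stood at 29.5 and 48.1 in dermal and 74.3 and 64.1 in inguinal libraries. The order of Hspa1a and Dnajb1 depends on how reads shared between Hspa1a and Hspa1b were counted, which is not known.

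**Figure D5:**
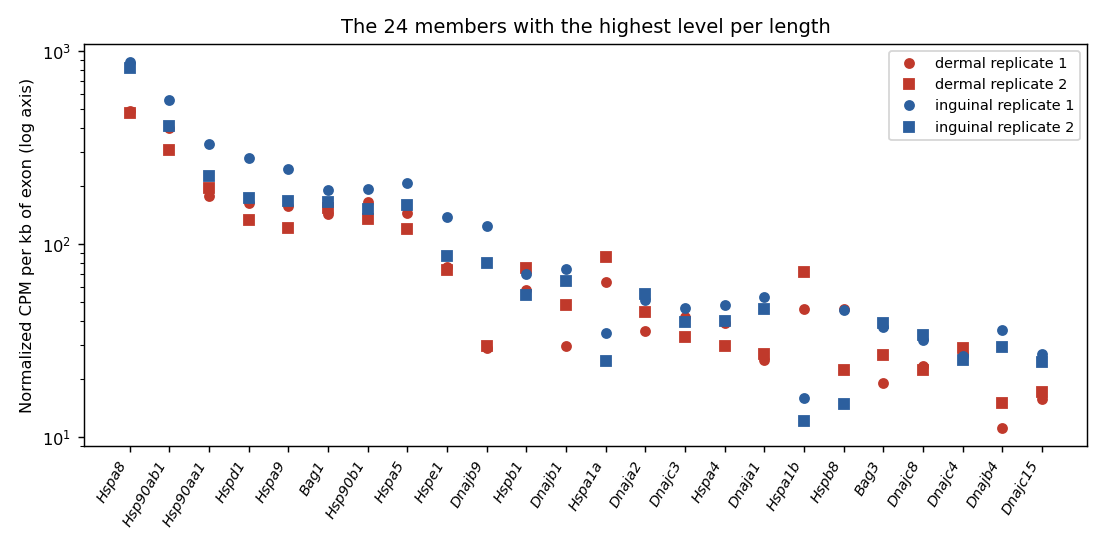
Normalized CPM per kb of exon (log axis) for the 24 members with the highest mean level per length, with 1 point per library. Hspa8 is highest in all 4 libraries, and the depots separate widely for Dnajb9, Hspa1a, Hspa1b and Dnajb4.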

How the data were processed

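Gene-level RNA-seq values of 2 dermal and 2 inguinal libraries were used, grouped by sample title. The deposited signal values are normalized CPM: the authors scaled reads per gene by library size and by 1 more factor per library. The submitters' processing notes name the build mm10 and, without roles or settings, edgeR, featureCounts, Subread 1.4.6, Picard 1.127 and TopHat2 2.0.12. Whether counting used strand is not stated there, and overlapping antisense genes may not be separable. Per the labels' protocols, libraries were made with a stranded total RNA kit.

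In each column 100% of values were whole multiples of 1 read within 0.001. The 12797 genes that reached 1 CPM in 2 or more libraries entered limma 3.58.1 under R 4.3.3, two-sided, after taking log2(CPM + 0.5); variances followed an intensity trend. As alternatives, the recovered reads were tested with edgeR 4.0.16 (2056 genes passed) and DESeq2 1.42.0 (1985), against 2094 with limma. Alternatives were another normalization, pseudocount, filter, tool, replicate block and libraries left out in turn.

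Positions and exon lengths came from GENCODE M21 on GRCm38 (mm10), and promoters from RefSeq on GRCm38.p6. Where an annotated exon covered the upstream bases, 30 bases around the site are shown. The 2-unit core and the reticulum stress element were added after values were seen. Any member could be named. Of other lists, the members that passed (at most 3 per direction) and the 2 most abundant were named, plus a fixed set, and 1 gene under this rule is not reported here. Members and lists were chosen with earlier results of these data known. Classes and compartments came from textbook knowledge.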

Additional observations from a re-analysis of the deposited data

How the results depend on the processing

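Of the 11 members that passed, 5 (Hspa1a, Hspa1b, Hspa12b, Dnajb4 and Dnajb9) did so under all 14 alternatives and 0 changed sign. Of the 55 that did not pass, 16 changed sign and 17 passed in at least 1 alternative, 7 of them only with the replicate block. Without the intensity trend 5 members were higher in inguinal libraries. With 1 library left out, members higher in dermal libraries numbered 2 (without either dermal replicate) to 6 (without inguinal replicate 1), and members higher in inguinal libraries 3 (without dermal replicate 1) to 14 (without inguinal replicate 2). Over all genes these ranges were 339 to 1212 and 568 to 1470, lowest without dermal replicates 2 and 1, and the lone library of a depot was assumed to vary like the other depot. Library-size CPM raised the dermal share of calls from 46.2% to 55.6%.

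The labels do not say that equal replicate numbers pair libraries. Deviations of dermal and inguinal replicate 1 from their depot means correlated at 0.464 across 12797 genes, a hint from the data only. A fit with the replicate block called 2342 genes higher on the dermal side and 2384 on the inguinal side, among them 5 and 20 members. Of genes described above as not passing, Dnajb1 (adjusted p = 0.00087), Hspa5, Hspa9, Hspd1, Hspe1, Hsp90aa1, Hspa12a and Cryab passed with it. So did Hsp90ab1, Hspa4, Dnaja2, Dnajb6, Dnajb12, Dnajc21, Bag4, Sgta, Cct2, Tcp1, Yme1l1 and Sqstm1.

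The log2 fold changes below changed sign, and the cause was not tested. With libraries left out they ranged from -0.80 to 0.43 for Hspa4l, -0.24 to 0.69 for Hsph1, -0.10 to 0.28 for Hspb1, -0.50 to 1.10 for Hspb8, -0.0035 to 0.19 for Hsf1, -0.42 to 0.020 for Hsf2 and -0.059 to 0.20 for Hsbp1. They ranged from -0.21 to 0.25 for Pparg, -0.10 to 0.11 for St13, -0.32 to 0.20 for Calr and -0.15 to 0.21 for Canx. With edgeR and DESeq2, Pparg gave -0.0027 and -0.0095 and St13 -0.0073 and -0.015. With quantile normalization and library-size CPM, Calr gave 0.052 and 0.025.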

Other observations

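The 3 members higher in dermal libraries, Hspa1b, Hspa1a and Bag6, lay within 191 kb of chromosome 17 (34956436 to 35147322, GRCm38), an interval chosen after their values were seen. It held 11 tested genes in all. The other 8 were Lsm2, Vars, Clic1, Ddah2, Abhd16a, Csnk2b, Gpank1 and D17H6S53E, of which 0 passed by limma, edgeR or DESeq2 and 2 had an unadjusted p under 0.05 by limma. Their median log2 fold change was 0.13, and 5 of the 8 were positive.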
